A study of Homo sapiens with 20 samples.

Results

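The genes described here are 35 genes of protein folding in the endoplasmic reticulum (ER), of the unfolded protein response and of the ATF4 response. They were chosen by gene symbol from a list written with earlier results of these data known, and each symbol matched 1 of the 60671 gene identifiers in the deposited count table. RNA was sequenced from hTCEpi, an established human line of the corneal surface epithelium that telomerase keeps dividing, which was kept in keratinocyte medium with added calcium chloride and given recombinant human SPARC for 24 hours. SPARC is a secreted glycoprotein of the extracellular matrix that binds collagen. The 4 groups of 5 samples each received SPARC at 5 µg/ml (SPARC 5), 0.5 µg/ml (SPARC 0.5), 0.05 µg/ml (SPARC 0.05) or 0 µg/ml (control). All groups are the same line in the same medium, 1 time point was taken, and nothing in the labels tells whether replicates were separate cultures, so p-values may measure only a technical spread.

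Secreted and membrane proteins fold in the lumen of the ER with the help of chaperones, lectins and enzymes that form disulfide bonds. When unfolded protein builds up, 3 sensors in the ER membrane respond. ERN1 splices XBP1 mRNA into a form that encodes an active transcription factor, ATF6 is cut to release its transcription factor domain, and EIF2AK3 phosphorylates eIF2, which lowers general translation and lets ATF4 be translated. XBP1 and ATF6 act mainly on genes of chaperones and of ER-associated degradation, the export of misfolded protein to the proteasome. ATF4 acts mainly on genes of amino acid supply and on DDIT3, and it can also be raised by amino acid shortage and other stresses without the ER. Gene counts show neither the splicing of XBP1 nor the phosphorylation of the sensors or the cutting of ATF6, and protein was not measured.

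The ER stress element (ERSE), a sequence bound by ATF6 with NF-Y and linked to the XBP1 response, is the letters CCAAT, then any 9 bases, then CCACG. A shorter form, ERSE-II, is ATTGG, then any 1 base, then CCACG. The amino acid response element searched here, bound by ATF4 dimers, is TGATGCAA. These letters were searched on both strands of 300-base windows, from 250 before to 50 after a start in RefSeq (GRCh38.p14), held for 34 of the 35 genes. PDIA3 had no entry. A gene counted when any window under its symbol held the letters, while the counts over all windows are of single windows, a different unit. Some windows lay at starts inside a gene. The CANX letters lay within chr5:179698758-179698816, in a plus-strand gene that begins at 179678628. The PDIA6 letters lay within chr2:10812833-10812891, in a minus-strand gene that runs to 10837977. The stretches printed below for HSP90B1, CRELD2 and CHAC1 also lay inside those plus-strand genes, which begin at 103930107, 49918167 and 40952962. The ERSE letters stood in the windows of HSPA5, HSP90B1, CALR, CANX, PDIA6, CRELD2 and XBP1, 7 of the 34, against 27 of all 35116 windows in the table (0.077%). The ERSE-II letters stood in those of HYOU1, SDF2L1 and HERPUD1, 3 of the 34, against 19 of all windows (0.054%). The amino acid element stood in those of HERPUD1 and CHAC1, 2 of the 34, against 304 of all windows (0.87%). No motif overlapped another in these genes. The 35 genes were chosen as genes of this response, so these shares describe the windows and do not test for enrichment. The stretches below show genes with the letters whose RNA rose at SPARC 5 and genes with the same letters whose RNA was not called, so that both can be compared. They read 5′ to 3′ on the gene's own strand with 20 bases on either side, and capitals mark both parts of a motif or the whole element, which read as their reverse complements where the motif lies on the other strand.
HSPA5, ERSE, rose, chr9:125241371-125241429, minus strand: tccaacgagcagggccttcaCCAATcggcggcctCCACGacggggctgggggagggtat
CALR, ERSE, rose, chr19:12938364-12938422, plus strand: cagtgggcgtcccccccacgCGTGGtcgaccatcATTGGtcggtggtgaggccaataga
HSP90B1, ERSE at 2 places, rose, chr12:103930196-103930359, plus strand: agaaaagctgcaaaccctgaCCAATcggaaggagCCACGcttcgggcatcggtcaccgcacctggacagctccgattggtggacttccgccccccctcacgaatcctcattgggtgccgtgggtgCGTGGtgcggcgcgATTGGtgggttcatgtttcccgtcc
XBP1, ERSE, rose, chr22:28800583-28800641, minus strand: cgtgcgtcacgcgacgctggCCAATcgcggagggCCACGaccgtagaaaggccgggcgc
CRELD2, ERSE, not called, chr22:49918534-49918592, plus strand: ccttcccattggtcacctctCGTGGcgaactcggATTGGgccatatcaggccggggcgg
HYOU1, ERSE-II at 2 places, rose, chr11:119057254-119057410, minus strand: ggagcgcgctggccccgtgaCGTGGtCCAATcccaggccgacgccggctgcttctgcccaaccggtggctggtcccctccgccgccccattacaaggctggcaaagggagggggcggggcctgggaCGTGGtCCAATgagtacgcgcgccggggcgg
SDF2L1, ERSE-II, not called, chr22:21642094-21642144, plus strand: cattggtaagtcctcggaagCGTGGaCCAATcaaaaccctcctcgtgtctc
HERPUD1, amino acid element and ERSE-II, rose, chr16:56931946-56932055, plus strand: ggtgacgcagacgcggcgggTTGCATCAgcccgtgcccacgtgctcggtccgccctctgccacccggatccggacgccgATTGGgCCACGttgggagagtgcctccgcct
CHAC1, amino acid element, not called, chr15:40953242-40953289, plus strand: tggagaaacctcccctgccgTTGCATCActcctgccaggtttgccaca

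Total counts per sample lay between 31955358 and 50112286. Of the 10 markers listed for corneal and basal epithelium, 9 had a mean of at least 1 counts-per-million (CPM) in every group, led by the basal keratin KRT5, and their summed level spanned 12064 to 12532 CPM at SPARC 5 and 11672 to 12592 CPM in control. That sum is mostly KRT5, and other markers of the list differed between the groups: KRT14 averaged 465 ± 42.3 CPM at SPARC 5 and 331 ± 25 CPM in control, and KRT15 averaged 53.1 ± 7.52 CPM at SPARC 5 and 114 ± 24.5 CPM in control. EPCAM averaged 69.2 ± 1.75 CPM at SPARC 5 and 86.6 ± 3.11 CPM in control, and ALDH3A1 averaged 3.82 ± 0.60 CPM at SPARC 5 and 6.89 ± 0.63 CPM in control. The part of these differences in the results was not tested. KRT12, a keratin of differentiated corneal epithelium, averaged 0.00533 CPM at SPARC 5 and 0.0272 CPM in control. The summed level of 7 markers of corneal stroma and fibroblasts reached at most 7.79 CPM in any sample, with KERA at 0 in all 20. That of 4 immune markers reached at most 1.87 CPM, and that of 6 markers of endothelium and melanocytes at most 4.85 CPM. SPARC 5 replicates 2 and 5 lay at opposite ends of their group on the second principal component, which held 6.7% of the variance. Counts followed the GC content of genes unequally: the correlation per library spanned -0.127 to 0.099 at SPARC 5 and -0.012 to 0.27 in control.

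At SPARC 5, 7 of the 11 chaperones and co-chaperones of the ER lumen and all 5 enzymes of disulfide exchange rose by small amounts, while among the 35 genes no rise was called for ATF4, DDIT3 or the 7 ATF4 targets and feedback genes. Of the 35 genes, 16 rose, 1 fell and 18 were not called against control, by edgeR's quasi-likelihood test with Benjamini-Hochberg adjustment over 22938 genes and an adjusted p under 0.05. Among all genes tested, 7.04% rose and 4.58% fell. The 16 that rose are 45.7% of the 35. The count was also set against the more abundant genes, those averaging 20 CPM or more, a level chosen after the values were seen. At that level 16 of 29 of these genes rose (55.2%), against 15.9% of 7856 genes. The rises were between 6.7% and 22.6%, and the median log2 fold change over the 35 genes was 0.10, against -0.01 over all genes tested. With counts scaled by library size alone, the number that rose was 11 and the median was 0.05, against -0.05 over all genes, and the split over all genes changed to 31.3% of called genes higher, against 60.6% with TMM (trimmed mean of M values) factors. In bulk RNA, a change in the number of cells that express a gene and a change in RNA per cell cannot be told apart.

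**Figure D1:**
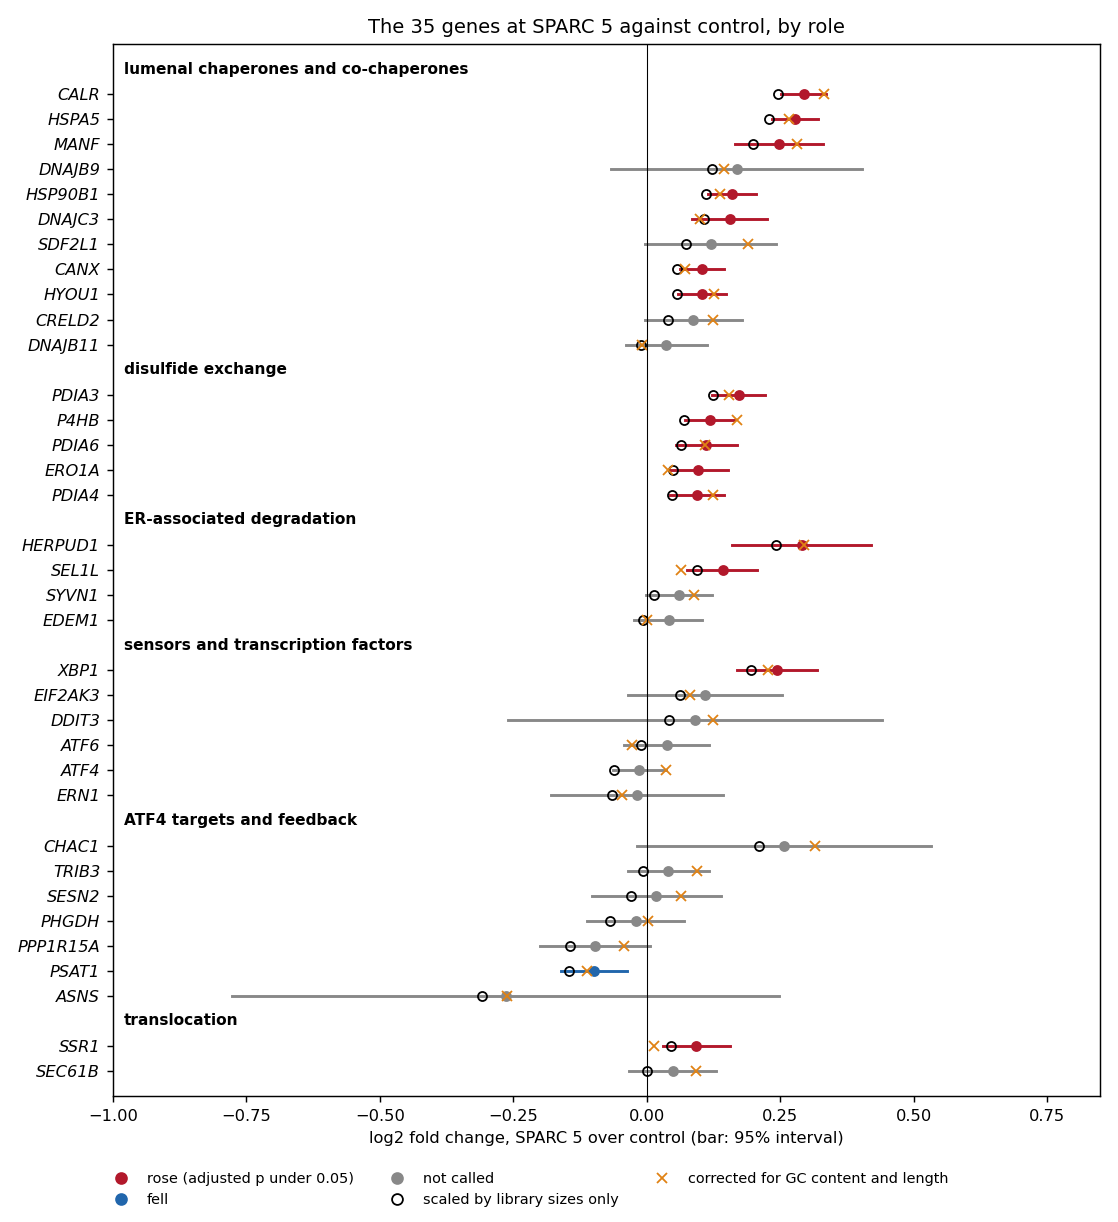
Log2 fold change of each of the 35 genes at SPARC 5 over control (x axis) with its 95% interval, grouped by role, with genes that rose in red, the gene that fell in blue and genes not called in grey. Open circles and crosses give the same change scaled by library size alone and corrected for GC content and length. CALR has the highest value, 0.29. The 7 ATF4 targets and feedback genes have a median of -0.02 and span -0.26 for ASNS to 0.26 for CHAC1, both low genes with wide intervals.

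In 13 of the 35 genes every SPARC 5 sample lay above every control, which held for 4.8% of all genes tested. In none did every SPARC 5 sample lie below every control, against 2.88% of all genes tested. Together the 35 genes took 6790.3 to 6988 CPM at SPARC 5 and 6134 to 6318 CPM in control, groups that did not overlap. Most of that difference in summed CPM lay in the 11 lumenal chaperones and co-chaperones, which summed to 4126 ± 60.1 CPM at SPARC 5 and 3618 ± 37.2 CPM in control (mean ± SD, n = 5).

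The lumenal chaperones and co-chaperones rose in 7 of 11 cases, with a median log2 fold change of 0.16 (0.11 by library size alone, 0.14 with GC correction). HSPA5, known as BiP, is the Hsp70 chaperone of the ER, and its release from the sensors is part of their activation. It lies at chr9:125234853-125241330 on the minus strand. HSPA5 stood at 1027, 1024, 1008, 1050.0 and 975 CPM in the SPARC 5 samples, against 819.8, 849, 850.0, 828 and 848 CPM in the controls. All 5 SPARC 5 samples were above all 5 controls. Means were 839 ± 14.1 CPM in control, 864 ± 24.9 CPM at SPARC 0.05, 904 ± 25 CPM at SPARC 0.5 and 1017 ± 27.8 CPM at SPARC 5 (SD, n = 5), so the mean was higher at each dose than at the one below. The log2 fold change at SPARC 5 was 0.28 ± 0.02 (SE, adjusted p = 2.63e-19, edgeR).

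CALR, calreticulin, is the soluble lectin chaperone that holds newly made glycoproteins and binds calcium in the lumen. It lies at chr19:12938578-12944489 on the plus strand. CALR stood at 792, 782, 782, 766 and 754 CPM at SPARC 5, against 631, 657, 626, 623 and 626 CPM in control, with a wide gap between the groups. Its mean was 633 ± 13.8 CPM in control, 640.3 ± 13.0 CPM at SPARC 0.05, 669 ± 12.9 CPM at SPARC 0.5 and 775 ± 15.0 CPM at SPARC 5. Most of the difference thus lay between the 2 highest doses. The log2 fold change over control at SPARC 5 was 0.29 ± 0.02 (adjusted p = 7.02e-21, edgeR). CANX, calnexin, the membrane-bound lectin chaperone with the same kind of client, stood at 889.8, 871, 878, 918 and 880.2 CPM at SPARC 5, against 833, 834, 795, 819 and 849 CPM in control. The groups did not overlap, and the log2 fold change was 0.10 ± 0.02 (adjusted p = 8.27e-05, edgeR).

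HSP90B1, the Hsp90 of the ER, stood at 526, 512, 535, 546 and 534 CPM at SPARC 5, against 472, 477, 473, 472 and 480.3 CPM in control. Every SPARC 5 sample was higher than every control, and the spread among controls was small. Its log2 fold change was 0.16 ± 0.02 (adjusted p = 2.56e-08, edgeR). MANF, a small lumenal protein that binds HSPA5 and is secreted under ER stress, stood at 70.3, 62.7, 70.7, 65.0 and 63.4 CPM at SPARC 5, against 57.3, 57.4, 56.3, 55.2 and 53.7 CPM in control. Here too the groups were apart, and the log2 fold change was 0.25 ± 0.04 (adjusted p = 2.63e-06, edgeR).

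HYOU1, which exchanges the nucleotide on HSPA5, stood at 589.5, 602, 572, 596 and 572 CPM at SPARC 5, against 531, 549, 562, 543 and 544 CPM in control. The groups came close but did not overlap. Its log2 fold change of 0.10 ± 0.02 (adjusted p = 0.000405, edgeR) was 0.06 by library size alone, where it was not called (adjusted p = 0.0757). DNAJC3, a co-chaperone of HSPA5 that also inhibits eIF2 kinases, stood at 118, 112, 114, 121 and 122 CPM at SPARC 5, against 114, 99.6, 95, 109 and 112 CPM in control. Of the SPARC 5 samples, 4 were above the highest control. DNAJC3 had a log2 fold change of 0.16 ± 0.03 (adjusted p = 0.000781, edgeR).

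The other 4 genes of this role were not called. They are the co-chaperones DNAJB9 and DNAJB11, SDF2L1, which works with DNAJB11, and CRELD2, a lumenal protein with isomerase activity. Their log2 fold changes at SPARC 5 ranged between 0.04 for DNAJB11 and 0.17 for DNAJB9. DNAJB9, a gene known for strong induction by spliced XBP1, averaged 6.30 ± 0.77 CPM at SPARC 5 and 5.61 ± 0.26 CPM in control, with a 95% interval of the log2 fold change of -0.07 to 0.40. The interval of SDF2L1 was -0.003 to 0.242 and that of CRELD2 was -0.004 to 0.178, so rises of that size lie within these intervals. With GC correction SDF2L1 had a log2 fold change of 0.19 in place of 0.12 and was called (adjusted p = 0.0303).

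All 5 enzymes of disulfide exchange rose, with a median log2 fold change of 0.11 (0.06 by library size alone, 0.12 with GC correction). PDIA3, the isomerase that works with CALR and CANX on glycoproteins, stood at 346, 324, 339.7, 346 and 341 CPM at SPARC 5, against 295, 316, 293, 300.4 and 302 CPM in control. The groups did not overlap, although SPARC 5 replicate 2 lay below the other samples of its group. The log2 fold change was 0.17 ± 0.02 (adjusted p = 4.58e-08, edgeR). P4HB, protein disulfide isomerase itself, stood at 451, 466, 448, 443 and 448 CPM at SPARC 5, against 401, 426, 431, 413 and 409 CPM in control. Again the groups were apart, with a log2 fold change of 0.12 ± 0.02 (adjusted p = 6.51e-05, edgeR).

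PDIA6, an isomerase that also limits ERN1 signalling, stood at 178, 170.4, 161, 168 and 178 CPM at SPARC 5, against 159, 156, 160.2, 161 and 155 CPM in control. The lowest SPARC 5 sample, replicate 3, was barely above the highest control. PDIA6 had a log2 fold change of 0.11 ± 0.03 (adjusted p = 0.00392, edgeR), which was not called without SPARC 5 replicates 2 and 5 (adjusted p = 0.0572) or by library size alone (adjusted p = 0.134). PDIA4, another isomerase, stood at 274, 279, 286, 279 and 272 CPM at SPARC 5, against 250.2, 263, 273, 258 and 257 CPM in control. The groups overlapped at 1 SPARC 5 sample. PDIA4 had a log2 fold change of 0.09 ± 0.03 (adjusted p = 0.00551, edgeR) and was not called by library size alone (adjusted p = 0.227). ERO1A, the oxidase that renews the isomerases, stood at 187, 184, 189, 184 and 189.9 CPM at SPARC 5, against 175, 171, 168, 181 and 177 CPM in control. No values overlapped. ERO1A had a log2 fold change of 0.10 ± 0.03 (adjusted p = 0.00969, edgeR), which was 0.04 with GC correction (adjusted p = 0.417) and 0.05 by library size alone (adjusted p = 0.256), and it was not called with no filter on low counts (adjusted p = 0.0546).

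**Figure D2:**
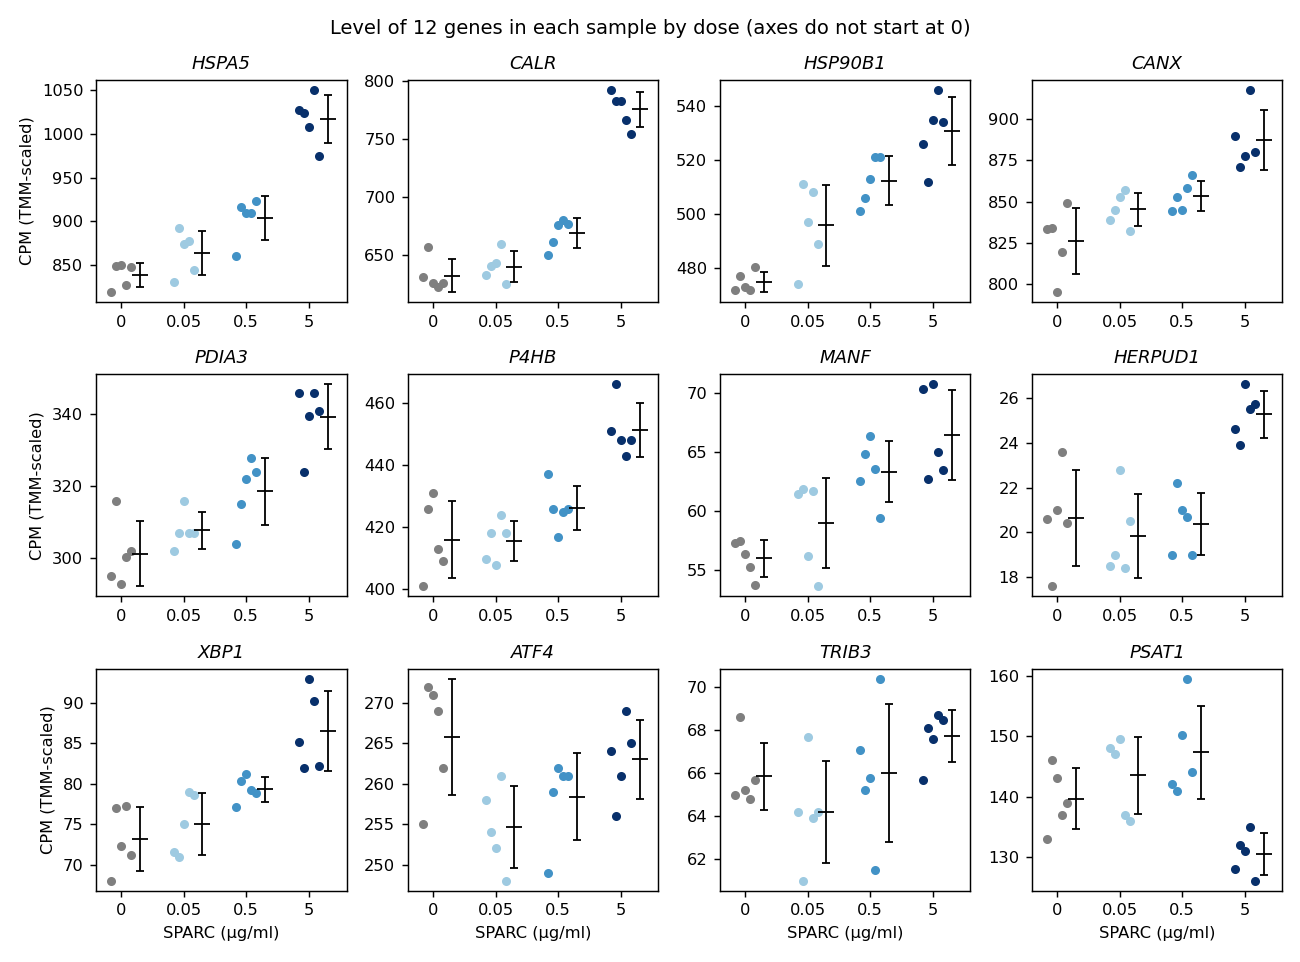
CPM of 12 of the genes in each sample (y axes, which do not start at 0) by SPARC dose in µg/ml (x axes); points are samples and bars the mean ± SD of the 5 samples of a group. HSPA5 and HSP90B1 increase over the doses, CALR and HERPUD1 differ mainly at 5 µg/ml, ATF4 overlaps between all groups, and PSAT1 is lowest at 5 µg/ml.

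Of the 4 genes of ER-associated degradation, 2 rose. HERPUD1, a membrane protein that gathers the degradation complex, stood at 24.6, 23.9, 26.6, 25.5 and 25.7 CPM at SPARC 5, against 20.6, 17.6, 21.0, 23.6 and 20.4 CPM in control. The groups were separate, but the highest control came within a short distance of the lowest SPARC 5 sample. HERPUD1 averaged 20.6 ± 2.12 CPM in control, 19.8 ± 1.85 CPM at SPARC 0.05, 20.4 ± 1.39 CPM at SPARC 0.5 and 25.2 ± 1.03 CPM at SPARC 5. The 3 lower groups overlapped, so the difference lay at the highest dose. Its log2 fold change over control was 0.29 ± 0.07 (adjusted p = 0.00064, edgeR).

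SEL1L, the adaptor of the ubiquitin ligase SYVN1, stood at 100.2, 98.0, 110.3, 106 and 102 CPM at SPARC 5, against 92.6, 92.9, 92.2, 94.2 and 96.5 CPM in control. All SPARC 5 samples were higher than all controls. SEL1L had a log2 fold change of 0.14 ± 0.03 (adjusted p = 0.000941, edgeR), but 0.07 with GC correction, where it was not called (adjusted p = 0.203). EDEM1, which directs glycoproteins with trimmed mannose to degradation, was the most abundant of the 4 in CPM and stood at 115, 117, 123, 126 and 121 CPM at SPARC 5, against 118, 113, 110.2, 117 and 126 CPM in control. The groups overlapped widely, and the log2 fold change was 0.04 (95% interval -0.02 to 0.10). SYVN1 had a log2 fold change of 0.06 (95% interval -0.002 to 0.123) and was not called, but was called with GC correction at 0.09 (adjusted p = 0.0439).

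Among the sensors and transcription factors, XBP1 rose and the other 5 genes were not called. XBP1 lies at chr22:28794555-28800597 on the minus strand, and as a gene it is itself a target of ATF6. XBP1 stood at 85.2, 82.0, 93.0, 90.3 and 82.2 CPM at SPARC 5, against 68.0, 77.0, 72.3, 77.3 and 71.2 CPM in control. The groups did not overlap. Its mean was 73.1 ± 3.99 CPM in control, 75.0 ± 3.78 CPM at SPARC 0.05, 79.3 ± 1.53 CPM at SPARC 0.5 and 86.5 ± 4.92 CPM at SPARC 5, higher at each dose than at the one below. The log2 fold change at SPARC 5 was 0.24 ± 0.04 (adjusted p = 3.36e-07, edgeR).

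ATF4, the transcription factor whose translation follows eIF2 phosphorylation, stood at 264, 256, 261, 269 and 265 CPM at SPARC 5, against 255, 272, 271, 269 and 262 CPM in control. The groups overlapped fully, and the 95% interval of the log2 fold change was -0.06 to 0.04. ATF4 was thus an abundant mRNA with a level at SPARC 5 close to that in control, while its protein was not measured. DDIT3, known as CHOP, which is linked to cell death under lasting ER stress, stood at 3.14, 2.28, 2.75, 3.72 and 2.08 CPM at SPARC 5, against 2.7, 2.51, 2.51, 2.82 and 2.60 CPM in control. At this level the spread was wide at SPARC 5, and the 95% interval of its log2 fold change was -0.26 to 0.44. The sensors ERN1, ATF6 and EIF2AK3 had log2 fold changes of -0.02 (95% interval -0.18 to 0.14), 0.04 (-0.04 to 0.12) and 0.11 (-0.03 to 0.25).

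None of the 7 ATF4 targets and feedback genes rose, and 1 fell. No rise among them was called by DESeq2 or limma-voom either, and 0 had a positive change with an unadjusted p under 0.05. The median log2 fold change of these 7 was -0.02, with -0.07 by library size alone and 0.003 with GC correction, where its sign turned. PSAT1, which encodes the aminotransferase of serine synthesis, was the most abundant of the 7 and lies at chr9:78297143-78330093 on the plus strand. PSAT1 stood at 128, 132, 131, 135 and 126 CPM at SPARC 5, against 133, 146, 143, 137 and 139 CPM in control. Of the SPARC 5 samples, 4 lay below the lowest control. Its log2 fold change was -0.10 ± 0.03 (adjusted p = 0.025, edgeR), and the call was lost when control replicate 2 (adjusted p = 0.093), control replicate 3 (0.078), SPARC 5 replicate 1 (0.0571) or SPARC 5 replicate 5 (0.0747) was left out.

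The other 6 genes of this role were not called. TRIB3, a pseudokinase that restrains ATF4, averaged 67.7 ± 1.18 CPM at SPARC 5 and 65.9 ± 1.57 CPM in control. PPP1R15A, the subunit that directs phosphatase to eIF2, averaged 35.1 ± 1.55 CPM at SPARC 5 and 37.6 ± 2.43 CPM in control, with a 95% interval of the log2 fold change of -0.20 to 0.01, and was called as lower by library size alone (adjusted p = 0.0487). SESN2, a stress-induced inhibitor of mTORC1 signalling, averaged 24.0 ± 1.66 CPM at SPARC 5 and 23.7 ± 0.95 CPM in control. PHGDH, the first enzyme of serine synthesis, was also level, with 79.3 ± 4.48 CPM at SPARC 5 and 80.5 ± 8.48 CPM in control. CHAC1, which degrades glutathione, was low, with 4.79 ± 0.63 CPM at SPARC 5 and 4.01 ± 0.78 CPM in control, and a 95% interval of -0.02 to 0.53. ASNS, asparagine synthetase, was the lowest of the 35, with 1.10 ± 0.25 CPM at SPARC 5 and 1.32 ± 0.52 CPM in control, and its interval of -0.78 to 0.25 holds changes in either direction.

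Of both genes of translocation into the ER, SSR1 rose and SEC61B did not. SSR1, a subunit of the translocon-associated protein complex, stood at 119, 111, 126, 121 and 114 CPM at SPARC 5, against 114, 109.7, 111, 107 and 112 CPM in control. The groups overlapped at 1 SPARC 5 sample. Its log2 fold change of 0.09 ± 0.03 (adjusted p = 0.0412, edgeR) was 0.01 with GC correction (adjusted p = 0.861), and the call was lost in 10 of the 20 fits that left out 1 sample. Those were control replicates 2, 3 and 4, SPARC 0.05 replicates 2, 3 and 4, SPARC 0.5 replicate 3 and SPARC 5 replicates 1, 3 and 4, with an adjusted p of up to 0.2 without SPARC 5 replicate 3. SEC61B, a subunit of the translocation channel, averaged 64.6 ± 1.75 CPM at SPARC 5 and 62.5 ± 3.34 CPM in control.

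**Figure D3:**
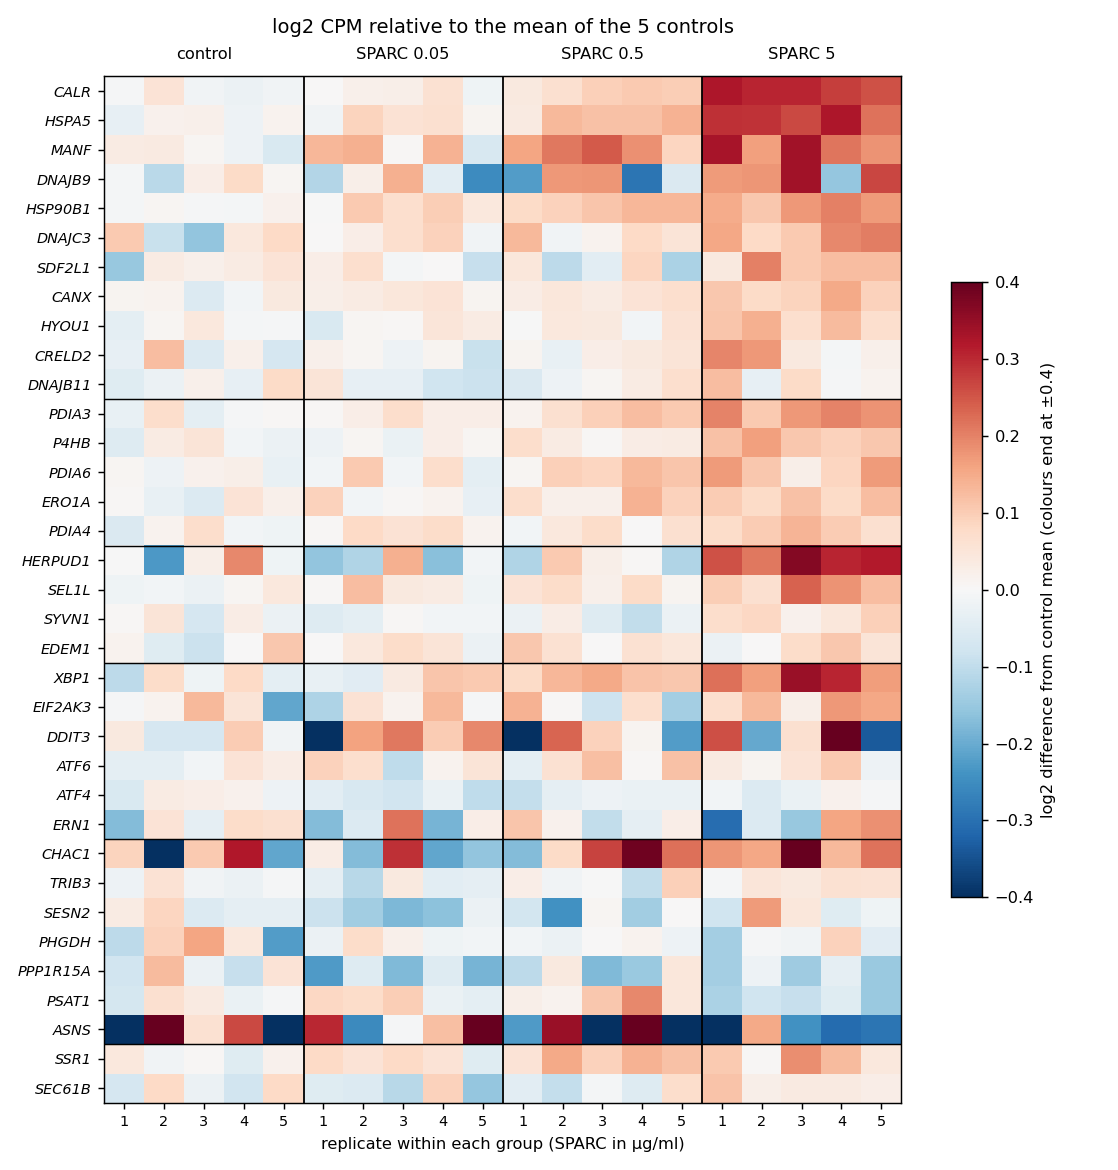
Log2 CPM of the 35 genes (rows, grouped by role) in each of the 20 samples (columns, by dose and replicate), relative to the mean of the 5 controls, on a colour scale that ends at ±0.4. CALR and HSPA5 are red in all 5 SPARC 5 samples, most genes are pale at SPARC 0.05, and the low genes ASNS, CHAC1, DDIT3 and DNAJB9 vary most between samples of 1 group.

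Across doses, the calls grew with the dose. At SPARC 0.05 none of the 35 genes was called against control, where 0.266% of all genes were called in either direction. DESeq2 and limma-voom called 0 as well, and at an unadjusted p under 0.05 HSP90B1 was higher and ATF4 and PPP1R15A were lower, 3 of the 35 (1 higher, 2 lower). At SPARC 0.5, 5 rose and none fell, against 1.36% of all genes that rose and 0.894% that fell. The 5 were HSPA5 with a log2 fold change of 0.11 ± 0.02 (adjusted p = 0.00106), HSP90B1 with 0.11 ± 0.02 (adjusted p = 0.00151), MANF with 0.18 ± 0.04 (adjusted p = 0.00655), CALR with 0.08 ± 0.02 (adjusted p = 0.0218) and SSR1 with 0.11 ± 0.03 (adjusted p = 0.0338), all by edgeR. The rises of HSPA5, HSP90B1 and MANF at SPARC 0.5 passed the threshold under every alternative run. Those of CALR and SSR1 did not. CALR lost its call without control replicate 3 or 4 or SPARC 0.5 replicate 3, 4 or 5, with an adjusted p of up to 0.092. SSR1 lost its call without control replicate 2, 3 or 4 or SPARC 0.5 replicate 2, 4 or 5, with an adjusted p of up to 0.11. The number that rose was 3 without control replicate 3 or SPARC 0.5 replicate 4 or 5. PDIA3 was not called (adjusted p = 0.056, edgeR) but rose in 12 of 33 alternatives, among them DESeq2 (adjusted p = 0.0174) and limma-voom (adjusted p = 0.0201). P4HB rose with GC correction, at 0.10 (adjusted p = 0.00249, edgeR). PDIA6 and XBP1 were called only in fits that left out 1 sample.

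HSP90B1 and MANF had much of their difference already at SPARC 0.5. HSP90B1 averaged 475 ± 3.49 CPM in control, 496 ± 15.0 CPM at SPARC 0.05, 512 ± 8.73 CPM at SPARC 0.5 and 531 ± 12.6 CPM at SPARC 5. MANF averaged 56.0 ± 1.54 CPM in control, 59.0 ± 3.78 CPM at SPARC 0.05, 63.3 ± 2.60 CPM at SPARC 0.5 and 66.4 ± 3.80 CPM at SPARC 5. Neither was called between SPARC 5 and SPARC 0.5, where their ranges overlapped.

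Between SPARC 5 and SPARC 0.5, 7 of the 35 rose and 1 fell, against 3.31% and 1.49% of all genes tested. The rises were those of CALR with a log2 fold change of 0.21 ± 0.02 (adjusted p = 2.23e-13), HSPA5 with 0.17 ± 0.02 (adjusted p = 1.94e-09), HERPUD1 with 0.31 ± 0.07 (adjusted p = 0.000531), PDIA3 with 0.09 ± 0.02 (adjusted p = 0.0141), P4HB with 0.08 ± 0.02 (adjusted p = 0.0156), HYOU1 with 0.08 ± 0.02 (adjusted p = 0.0228) and XBP1 with 0.13 ± 0.04 (adjusted p = 0.029), all by edgeR. The gene that fell was PSAT1, which stood at 128, 132, 131, 135 and 126 CPM at SPARC 5, against 142, 141, 150.3, 159.6 and 144 CPM at SPARC 0.5. Here the groups did not overlap, and PSAT1 had a log2 fold change of -0.18 ± 0.03 (adjusted p = 1.72e-05, edgeR). CALR, HSPA5, HERPUD1 and PSAT1 passed the threshold in this comparison under every alternative run, and the number that rose was 3 without SPARC 5 replicate 1 and 4 without SPARC 5 replicate 4 or SPARC 0.5 replicate 1. PDIA3, P4HB, HYOU1 and XBP1 each lost the call in at least 3 fits that left out 1 sample of these 2 groups, with an adjusted p of up to 0.19 for XBP1 without SPARC 5 replicate 3.

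A trend over the 4 doses, fitted as 1 slope per dose step, was called in 16 of the 35 genes, all of them rises, against 6.81% of all genes that rose and 4.27% that fell. They are the same 16 genes that rose at SPARC 5 against control, from samples shared with that comparison, so the trend is not separate evidence of a graded change. Among the called genes the slope was highest for CALR, at a log2 change of 0.10 ± 0.01 per dose step (adjusted p = 4.23e-09, edgeR), and lowest for PDIA4, at 0.03 ± 0.01 (adjusted p = 0.0242), a call lost without control replicate 1 (adjusted p = 0.105) or SPARC 5 replicate 2, 3 or 4. SSR1 lost the call of its slope without control replicate 2 or 4 or SPARC 5 replicate 3. No fall was called by DESeq2 or limma-voom, and 0 had a negative slope with an unadjusted p under 0.05. With GC correction the slopes of CRELD2 (0.04, adjusted p = 0.0396, edgeR) and of the ATF4 feedback gene TRIB3 (0.03, adjusted p = 0.0486, edgeR) were also called. CHAC1 was not called, with a slope of 0.10 at an unadjusted p of 0.0288 (edgeR). The mean level was higher at each dose than at the one below in 12 of the 35 genes, which held for 8.24% of all genes tested. These 12 were HSPA5, HSP90B1, CALR, CANX, PDIA3, PDIA6, DNAJC3, HYOU1, MANF, SEL1L, XBP1 and ERO1A. The slopes of HERPUD1, P4HB, PDIA4 and SSR1 were called although their means did not follow that order. Over all genes, the share of called genes that were higher depended on the scaling in these comparisons too: with TMM factors it was 60.3% at SPARC 0.5 (28.6% by library size alone, 73.4% with GC correction), 69.0% between SPARC 5 and SPARC 0.5 (46.0% by library size alone, 56.3% with GC correction) and 61.4% for the trend (30.6% by library size alone). The 3 doses were each compared with the same 5 controls, so their values are not independent of each other.

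Of the 10 genes with ERSE or ERSE-II letters in a window, 8 rose at SPARC 5, CRELD2 and SDF2L1 being those not called (SDF2L1 was called with GC correction). Of the 24 genes with a window and neither motif, 7 rose. Among all genes tested 7.04% rose, and 15.9% of those averaging 20 CPM or more. Whether the letters go with the rises was not tested. The genes with these letters include the most abundant chaperones. The median of the mean level over all 20 samples was 224 CPM for the 16 genes that rose. For the 18 not called it was 40.2 CPM, and the part of abundance in the calls was not tested.

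**Figure D4:**
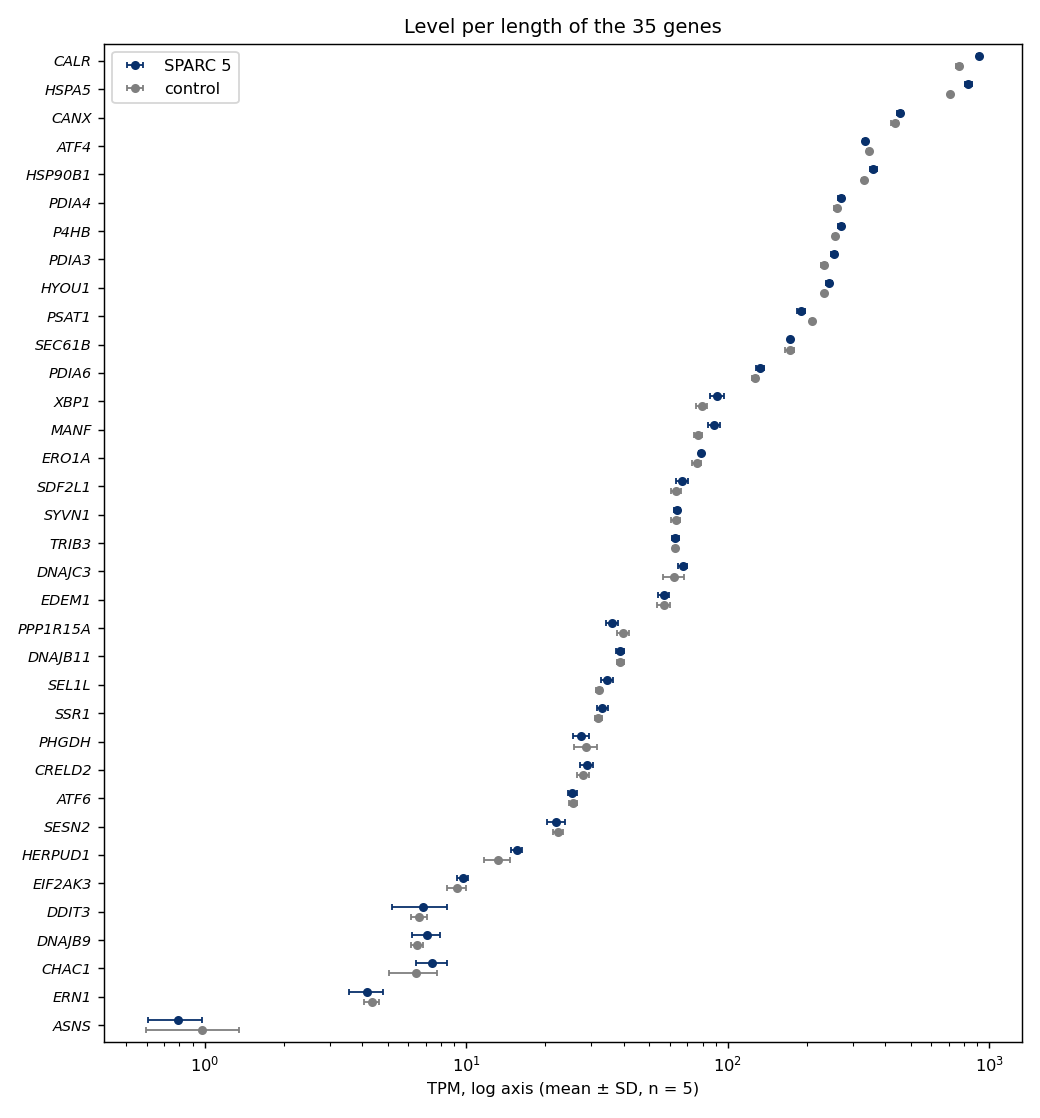
Level of the 35 genes in transcripts-per-million (TPM), computed with the exon length of each gene, on a log axis, as mean ± SD of 5 samples for SPARC 5 (blue, upper point) and control (grey, lower point). The genes run over about 3 powers of 10, with CALR and HSPA5 at the top and ASNS at the bottom.

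Per length, the levels differed widely between the genes. In TPM, CALR had the highest level, 911 ± 15.0 TPM at SPARC 5 and 765 ± 17.0 TPM in control, rank 106 of the genes tested. HSPA5 followed at 829.6 ± 25.3 TPM at SPARC 5 and 705 ± 1.94 TPM in control, and CANX at 454 ± 11.5 TPM at SPARC 5 and 435 ± 14.0 TPM in control. In both groups these 3 levels were apart by more than their spread. The transcription factor ATF4 had 334 ± 6.90 TPM at SPARC 5 and 347 ± 6.55 TPM in control, beside HSP90B1 at 360.3 ± 10.8 TPM at SPARC 5 and 332 ± 4.95 TPM in control. The isomerases PDIA4 and P4HB did not differ beyond their spread at SPARC 5, with 270.3 ± 7.66 and 271 ± 6.44 TPM. XBP1 had 91.1 ± 5.63 TPM at SPARC 5 and 79.3 ± 3.99 TPM in control. The sensors were far lower: ATF6 had 25.4 ± 0.98 TPM, EIF2AK3 9.68 ± 0.49 TPM and ERN1 4.18 ± 0.63 TPM at SPARC 5. ASNS had the lowest level, 0.79 ± 0.18 TPM at SPARC 5 and 0.97 ± 0.38 TPM in control.

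In the authors' deposited table for 5 µg/ml against control, 16 of the 35 genes are listed as higher, 1 as lower and 18 as not passing an adjusted p under 0.05. In the authors' deposited tables for the lower doses, 6 are listed as higher at 0.5 µg/ml and none as changed at 0.05 µg/ml.

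Other genes of the same pathways, come from lists written with earlier results known and are given as counts, with no test of the lists. These counts stand beside 7.04% of all genes tested that rose and 4.58% that fell, and 15.9% that rose among genes averaging 20 CPM or more. Of 38 other ER folding and disulfide enzymes tested, 3 rose and none fell at SPARC 5 by edgeR, with 2 lower at an unadjusted p under 0.05, 1 fall called by DESeq2 and 0 by limma-voom. The J-domain protein DNAJC1 had 24.5 ± 1.62 CPM at SPARC 5 and 20.9 ± 1.99 CPM in control (adjusted p = 0.00867, edgeR). The thioredoxin-like TMX4 and the peroxidase GPX8 had log2 fold changes of 0.16 and 0.21, which were called with neither library sizes alone nor GC correction. The median of this list was 0.04, and -0.008 by library size alone.

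Of 29 genes of the translocon, signal peptidase and N-glycosylation, 9 rose and 1 fell. TRAM1, a membrane protein beside the translocon, had 151 ± 6.71 CPM at SPARC 5 and 126 ± 3.32 CPM in control, a log2 fold change of 0.27 ± 0.03 (adjusted p = 6.31e-12, edgeR). SPCS3, a subunit of signal peptidase, had 119 ± 5.51 CPM at SPARC 5 and 101 ± 3.43 CPM in control (adjusted p = 1.44e-08). SSR3, a partner of SSR1, had 274 ± 10.5 CPM at SPARC 5 and 241 ± 13.4 CPM in control (adjusted p = 6.47e-07). These 3 rises were also called by library size alone and with GC correction. MOGS, the glucosidase that trims the first glucose, fell by 0.08 on the log2 scale (adjusted p = 0.0458), a call not held with GC correction (adjusted p = 0.564). The median of the list was 0.044, and -0.003 by library size alone.

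Of 23 other genes of ER-associated degradation, 2 rose, a share near that of all genes. FAF2, which helps draw misfolded proteins out of the membrane, rose by 0.10 on the log2 scale (adjusted p = 0.0231, edgeR). FAF2 was not called by library size alone, nor with GC correction, where its adjusted p was 0.0786 (edgeR). Of 17 other regulators of the unfolded protein response, 2 rose and 2 fell. CREB3L2, an ER-membrane transcription factor related to ATF6 in its mode of release, had 109 ± 6.29 CPM at SPARC 5 and 89.6 ± 5.68 CPM in control, a log2 fold change of 0.28 ± 0.04 (adjusted p = 4.99e-10, edgeR). TMBIM6, an inhibitor of ERN1 and of cell death, had 465 ± 10.7 CPM at SPARC 5 and 418 ± 6.02 CPM in control (adjusted p = 1.08e-07). The death receptor TNFRSF10B, a DDIT3 target, and the adaptor TRAF2 fell, with adjusted p = 0.0429 and 0.0499. TRAF2 was not called with GC correction, where its log2 fold change was -0.05 in place of -0.11 (adjusted p = 0.459).

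Of 17 genes of eIF2 kinases and the eIF2 machinery, 2 rose, both catalytic subunits of protein phosphatase 1. PPP1CA had 272 ± 9.95 CPM at SPARC 5 and 249 ± 11.6 CPM in control (adjusted p = 0.000249, edgeR), and PPP1CB had 171 ± 6.41 CPM at SPARC 5 and 157 ± 6.21 CPM in control (adjusted p = 0.000751, not called with GC correction). Of 34 other ATF4 targets, 3 rose and 2 fell, shares near those of all genes, with a median of 0.002, which was -0.046 by library size alone and -0.009 with GC correction. SLC1A4, a transporter of neutral amino acids, had 17.3 ± 0.54 CPM at SPARC 5 and 12.2 ± 2.38 CPM in control, a log2 fold change of 0.49 ± 0.08 (adjusted p = 3.37e-06). JDP2 rose by 0.20 and SLC1A5 by 0.07 on the log2 scale, neither called by library size alone. DDIT4, an inhibitor of mTORC1 that also answers hypoxia and glucocorticoids, had 183 ± 9.79 CPM at SPARC 5 and 219.7 ± 23.4 CPM in control, a log2 fold change of -0.27 ± 0.06 (adjusted p = 0.00541). ALDH18A1, an enzyme of proline synthesis, fell by 0.10 on the log2 scale (adjusted p = 0.0116).

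**Figure D5:**
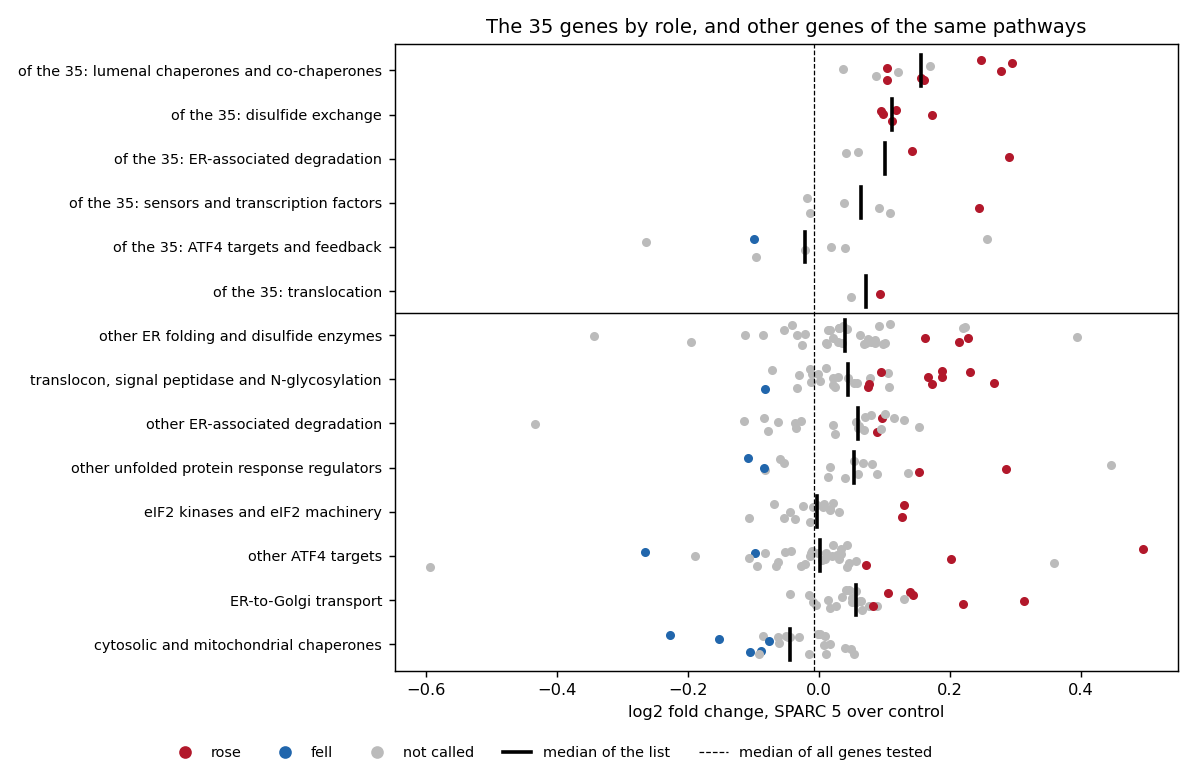
Log2 fold change at SPARC 5 over control (x axis) of each gene of the 35, by role (upper rows), and of each gene of 8 lists of related pathways (lower rows); thick lines are the medians and the dashed line the median of all genes tested. Of the chaperones 7 of 11 rose, of the disulfide enzymes 5 of 5, of ER-to-Golgi transport 6 of 27, and of cytosolic and mitochondrial chaperones 5 of 23 fell.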

How the data were processed

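RNA was measured in 20 samples, 5 at each of 4 doses, after RNase H depletion of ribosomal RNA and random-hexamer priming, per the labels' protocols. The deposited table holds whole read counts per gene that the authors made on GRCh38. The submitters' processing notes name STAR 2.7.9a, Salmon 1.5.2, featureCounts 2.0.3 of Subread, limma, edgeR and bcl2fastq. Neither the annotation release nor the strand setting was named (not given in the sources used here). Whether reads of a gene were kept apart from those of one overlapping it on the other strand is therefore not known. The authors' deposited comparison tables hold, per the file headers, log2 fold changes and p-values, plain and adjusted. Of 60871 entries, 368 repeated 168 identifiers with the same counts, and 1 entry was kept for each. Genes were kept with filterByExpr (minimum count 10), which left 22938 and all 35 genes described. CPM are scaled with TMM factors, and TPM use exon lengths of GENCODE 29, which also gave the gene positions.

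Genes were tested in edgeR 4.0.16 (R 4.3.3) by its robust quasi-likelihood F-test, with 4 group means in 1 model, and a slope over 4 dose steps for the trend. Adjustment of p-values (Benjamini-Hochberg) ran over all 22938 genes, and SE is the standard error of a log2 fold change. The biological coefficient of variation was 6.68%. Replicates differed more than counting noise in all 40 pairs (chi-square per gene 4.09 to 9.55). The alternatives were other scaling, DESeq2 1.42.0, limma-voom (limma 3.58.1), other filters, samples left out, a correction for GC content and length, and a block on the replicate number. The test was checked on simulated data with independent samples and the spread fitted here, which cannot tell whether replicates were separate cultures. The 35 genes and all lists were chosen with earlier results of these data known. Values in every sample are given for genes called at SPARC 5 or in the trend and for the most abundant gene of each role; of each list of related genes, up to 3 rises and 3 falls with the smallest p are named, except 1 gene that is not reported here.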

Additional observations from a re-analysis of the deposited data

Results flagged for a closer look

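In each group of 5 samples, the gap of the highest or lowest sample to its nearest neighbour was set against the range of the group, with 0.71 as the critical value. Of 140 groups (35 genes at 4 doses) 10 had such a sample, where chance alone gives about 1 in 20. HSPA5 had 861 CPM in SPARC 0.5 replicate 1, below the 909.6 to 923 CPM of the others. The same library was low for ATF4, with 249 CPM against 259 to 262 CPM. CALR had 657 CPM in control replicate 2, above 623 to 631 CPM, and TRIB3 had 68.6 CPM in that library, above 64.8 to 65.7 CPM. PDIA3 had 324 CPM in SPARC 5 replicate 2, below 339.7 to 346 CPM. SDF2L1 had 19.1 CPM in control replicate 1, below 21.5 to 22.0 CPM. DDIT3 had 1.98 CPM in SPARC 0.05 replicate 1, below 2.82 to 3.04 CPM, and SSR1 had 107 CPM in SPARC 0.05 replicate 5, below 115 to 117 CPM. CHAC1 had 5.90 CPM in SPARC 5 replicate 3, above 4.38 to 4.66 CPM. SEC61B had 67.7 CPM in SPARC 5 replicate 1, above 63.5 to 64.1 CPM.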

How the results depend on the processing

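No log2 fold change past the threshold changed sign in the 33 alternatives. Of the 17 genes called at SPARC 5 against control, 10 were called in every alternative: HSPA5, HSP90B1, CALR, CANX, PDIA3, P4HB, DNAJC3, MANF, HERPUD1 and XBP1. The number that fell there was 2 by library size alone, 0 with limma-voom and 0 without SPARC 5 replicates 2 and 5, and it spanned 0 to 1 when 1 sample was left out. At SPARC 0.5 the number that rose was 3 by library size alone and 3 with no filter on low counts, and spanned 3 to 7 with 1 sample left out. Between SPARC 5 and SPARC 0.5 it was 3 by library size alone and 3 with no filter, and spanned 3 to 8 with 1 sample left out. The trend was called in 9 genes by library size alone and in 14 to 16 with 1 sample left out. Over all genes, DESeq2 called 819 genes at SPARC 0.5 and 203 at SPARC 0.05; with 1 sample left out the counts spanned 267 to 608 and 22 to 82. GC correction gave 11 genes at SPARC 0.05, or 29 together with the replicate block. The causes of these differences were not tested.

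The replicate numbers were not taken to pair the samples: over 30 pairs of equal number the deviations from group means correlated between -0.035 and 0.044, none above 0.1. Of 20 samples, 11 correlated best with their own number, where an even spread over 5 numbers gives 4, a hint of pairing from the data and not from the design. With the replicate block, 16 of the 35 genes rose and 1 fell at SPARC 5, 6 rose at SPARC 0.5, and 8 rose and 1 fell between SPARC 5 and SPARC 0.5. Depth limits ASNS, DDIT3, CHAC1 and DNAJB9, whose intervals are the widest of the 35.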

Other observations

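Export from the ER and chaperones outside it were looked at in lists of their own. At SPARC 5, 6 of 27 genes of ER-to-Golgi transport rose by edgeR. Among all genes tested 7.04% rose, and 15.9% of those averaging 20 CPM or more. None of the 27 fell, with 0 lower at an unadjusted p under 0.05 and no fall by DESeq2 or limma-voom. The median log2 fold change of the list was 0.06 (0.01 by library size alone). SEC24D, a cargo adaptor of the COPII coat that buds vesicles from the ER, had 46.7 ± 1.75 CPM at SPARC 5 and 37.7 ± 1.62 CPM in control (SD, n = 5), a log2 fold change of 0.31 ± 0.05 (adjusted p = 1.03e-07, edgeR). TMED7, a transmembrane cargo receptor, had 78.6 ± 2.84 CPM at SPARC 5 and 67.6 ± 3.04 CPM in control (adjusted p = 5.73e-06, edgeR). SEC23A, the partner of the SEC24 proteins in the coat, had 92.8 ± 4.80 CPM at SPARC 5 and 84.0 ± 2.31 CPM in control (adjusted p = 0.00142, edgeR), and its adjusted p with GC correction was 0.0586.

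Chaperones of the cytosol and mitochondria had falls and no rises. Of 23, none rose and 5 fell (edgeR; 1 higher at an unadjusted p under 0.05, and no rise by DESeq2 or limma-voom), against 4.58% of all genes tested that fell. The median was -0.045, with -0.093 by library size alone and -0.014 with GC correction. The 3 falls with the smallest p were those of mitochondrial chaperones. TRAP1, the mitochondrial Hsp90, had 144 ± 3.29 CPM at SPARC 5 and 169 ± 3.66 CPM in control, a log2 fold change of -0.23 ± 0.03 (adjusted p = 2.83e-10, edgeR). DNAJA3, a mitochondrial J-domain protein, had 126 ± 4.05 CPM at SPARC 5 and 140.2 ± 0.63 CPM in control (adjusted p = 3.55e-05, edgeR). HSPD1, the mitochondrial Hsp60, had 602 ± 20.1 CPM at SPARC 5 and 648 ± 18.2 CPM in control (adjusted p = 0.000377, edgeR).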
